A study of Mus musculus with 2 samples.

Results

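The clustered histone genes were the 68 of 27933 gene symbols that began with Hist1h, Hist2h, Hist3h or Hist4 in both count tables. They held 6 genes of the linker histone H1, 19 of H2A, 18 of H2B, 12 of H3 and 13 of H4. Of the 68, 55 carried the prefix Hist1, 10 Hist2, 2 Hist3 and 1 Hist4. Single thymocytes (developing T cells) were measured in 1 wild type library and in 1 library whose cells carried, on both alleles, mutated GATA sites 1 and 2 (GS1+2) in NMe, which is an enhancer far from Myc, a gene that drives cell growth. Both came from mouse thymus, and strain, age and number of animals were not given in the sources used here. They are named here as wild type and mutant. With 1 library per genotype there was no test between genotypes: every comparison was between these libraries. Intervals have 95% coverage of counting error and of no other error.

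Histones wrap DNA into chromatin, and a cell that copies its DNA must make new histones at the same time. The genes that supply them lie in clusters, are transcribed during DNA synthesis, and give messenger RNAs that normally end in a conserved stem-loop in place of a poly(A) tail, which the stem-loop binding protein recognises. Some clustered genes also give polyadenylated RNA in cells that have left the cycle. The libraries were made from RNA captured by its poly(A) stretch, so that the molecules counted here were those this priming reached, and how priming on histone RNA arose was not tested.

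The tables held 1346 wild type and 1737 mutant cell barcodes with 6638880 and 6364506 unique molecular identifiers (UMIs, 1 per captured RNA molecule). Of the 3083 barcodes, 3067 were kept, and 1 barcode sequence occurred in both libraries. Clusters were named in the sense of X-like from markers that included no clustered histone gene. Early CD4-CD8- (DN) cells numbered 45 in wild type and 184 in mutant, cycling cells 600 and 306, CD4+CD8+ (DP) cells 259 and 480, post-selection cells 113 and 189, and single-positive (SP) cells 292 and 493. B and antigen-presenting cells numbered 11 and 47, and cluster 14, with 20 and 28 cells, stayed unnamed. Phases were scored with lists of S and G2M genes that held no clustered histone gene, and a cell with neither score above 0 is called resting. The larger score lay within 0.05 of 0 in 49 wild type and 122 mutant cells. The libraries filled the classes from different clusters: DP cells lay mainly in cluster 3 in wild type (241 and 19 cells) and in cluster 0 in mutant (18 and 461). Among cycling cells, cluster 7 (169 and 7 cells) and cluster 12 (88 and 13) were mainly wild type, cluster 11 (1 and 127) was mainly mutant, and clusters 2 (217 and 108) and 8 (125 and 51) held both. Levels are UMIs per 1000000 UMIs (CPM), summed over the cells of a class. They count molecules at their primed ends and were not divided by length.

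The annotated transcripts showed the stem-loop that defines replication histone RNA. The pattern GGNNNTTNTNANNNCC was searched on the transcript strand, in members past the coding region and in other genes in the last 300 bases. It stood in 45 of the 67 members with an annotated coding transcript (67.2%) and in 0.433% of 46440 other genes. The windows searched differed in length, so these shares are not strictly comparable. For each member, only the annotated transcript that reached furthest past its coding region was searched. A stem-loop in another transcript of the gene would thus be missed. Hist1h1b, Hist1h2ak and several other members have no annotated bases past the coding region, so the pattern could not be found in them. The sites below are a selection from the members with the most UMIs, those detected in resting cells and those that differed most between the libraries. Hist1h2ao, whose site has the same bases as that of Hist1h2ap, is shown as well. Each site runs from its first to its last base as transcribed, with the stem-loop in capitals and the 14 bases before it in lower case.
Hist1h2ap: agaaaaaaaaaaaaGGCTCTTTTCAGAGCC
Hist1h2ao: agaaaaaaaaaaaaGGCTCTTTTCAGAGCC
Hist1h2ae: gtaaaaaaaacaaaGGCTCTTTTCAGAGCC
Hist1h2ag: tgatcgccaacaaaGGCTCTTTTCAGAGCC
Hist1h2bj: acaccaaatccaaaGGCTCTTTTCAGAGCC
Hist3h2ba: gcccccaacccaaaGGCTCTTTTCAGAGCC
Hist3h2a: ttacagacaccaaaGGCTCTTTTCAGAGCC
Hist1h1c: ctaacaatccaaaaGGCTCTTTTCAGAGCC
Hist2h2aa1: cgagctcctaaaaaGGCTCTTTTCAGAGCC
Hist1h3c: gctatttaaaaaaaGGCTCTTTTAAGAGCC
Hist1h4d: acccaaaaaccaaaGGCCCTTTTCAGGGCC
Hist1h4i: caatgctacttaaaGGCCCTTTTTAGGGCC

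The stem was the same in most members, and the bases before it were not. The H1, H2A, H2B and H3 genes shown share the stem GGCTCT with AGAGCC, and the H4 genes shown carry GGCCCT with AGGGCC. Hist1h2ap and Hist1h2ao, H2A genes of the same cluster, had an unbroken run of 12 A directly before the stem-loop, and Hist1h2ae, also H2A, had a run of 8 A within these 14 bases. No other member of the 45 had a run of 8 in these 14 bases, where the median longest run over the 45 was 3. Elsewhere in their transcripts, Hist1h2ac and Hist1h2be held runs of 15 and 11 A, and they had 316 and 145 UMIs in both libraries together. Hist1h2ap and Hist1h2ae were the members with the most UMIs, at 93150 and 1335 in both libraries together, while Hist1h2ao had 72. Hist3h2ba, whose longest run in these 14 bases was 3 A, had 1292, close to Hist1h2ae. Whether runs of A bear on the counts was not tested. Of all 100-base stretches of the Hist1h2ap transcript, 92.2% also occurred in another gene, so reads of Hist1h2ap and Hist1h2ao could not be told apart over most of their length. In the last 300 bases of Hist1h2ap, 100% of these stretches did so. The level of Hist1h2ap as a single gene is therefore uncertain, and its intervals do not cover this.

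UMIs given to Hist1h2ap, which encodes a replication H2A, made up most of the histone RNA counted. All members together had 73246 UMIs among wild type cells and 36401 among mutant cells, 1.11% and 0.578% of each library. Hist1h2ap held 63688 of these in wild type and 29462 in mutant, 87.0% and 80.9%. The cycling class held 96.0% of the member UMIs in wild type and 87.5% in mutant. Of the other members, 10 had under 20 UMIs, among them Hist1h1t, Hist1h2ba and Hist1h2bq, which had none in either library. Hist1h1t and Hist1h2ba are known as histones of the male germ line.

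Histone RNA was much higher in cycling cells than in resting DP cells of both libraries. All members together were at 16171 (16052 to 16291) CPM in the wild type cycling class and at 15161 (14995 to 15329) in mutant. In resting DP cells they were at 1175 (1088 to 1267) CPM in wild type, compared with 1163 (1095 to 1235) in mutant. The level in cycling cells was thus 13.8-fold that in resting DP cells in wild type and 13-fold in mutant. Lower levels were found in resting post-selection cells, at 351 CPM in the wild type library and 262 in mutant, and in resting SP cells, at 245 and 213 CPM. Both libraries gave the same order of the classes, from cycling to DP to post-selection to SP cells, and the intervals of post-selection and SP cells overlapped in mutant. Resting DN cells were at 434 (341 to 544) CPM in wild type against 472 (417 to 533) in mutant.

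Among SP cells, most histone RNA came from 1 small cluster. The SP class as a whole was at 1860.3 CPM in wild type, compared with 1115 in mutant. Cluster 15, with 14 wild type and 16 mutant SP cells and with Top2a and Tuba1b among its leading genes, was at 17393 and 12686 CPM, and without it the SP class was at 281 and 214. The median doublet score of cluster 15 was 0.113, against at most 0.0495 in the other clusters, and whether its cells are doublets was not tested.

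Each family was higher in the cycling class. Hist1h2ap was at 14197 (14086 to 14309.7) CPM in wild type cycling cells and at 12697 (12545 to 12851) in mutant, against 444 and 305 in resting DP cells. This was a 32.0-fold difference in wild type and a 41.6-fold difference in mutant. The other 18 H2A genes together were 4.39-fold and 4.50-fold higher in cycling than in resting DP cells. The same folds were 3.98 and 8.95 for H3 and 3.47 and 3.57 for H4. They were 2.93 and 1.93 for H1 and 1.23 and 1.66 for H2B, the family that includes Hist3h2ba.

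Most single members followed the cycling class. Against resting DP and SP cells together, 46 of 52 members with at least 20 UMIs in both groups together were at least 2-fold higher in wild type cycling cells, where 14.7% of all genes tested were. In mutant the count was 44 of 51, against 15.9% of all genes. None of the 52 was 2-fold lower in wild type (15.6% of all genes), and 1 of the 51, the H2B gene Hist2h2be, was in mutant (15.6%). Nearly all members passed the minimum through their UMIs in cycling cells, which favours a higher level there without fixing it. In the resting cells alone, 7 members in wild type and 10 in mutant had 20 UMIs. Of these, 3 of the 7 and 4 of the 10 were 2-fold higher in cycling cells. Hist1h1b, a replication linker histone, was at 123 CPM in wild type cycling cells and 119.5 in mutant, and at 8.64 and 16.2 in resting DP cells. Hist1h1e, another linker histone, was at 78.7 and 80.5 CPM in cycling cells and at 24.2 and 42.1 in resting DP cells. Hist1h1b thus fell further than Hist1h1e between cycling and resting DP cells. The annotated Hist1h2be transcript overlaps Hist1h1e on the same strand, so that reads of these genes could not always be told apart. Hist1h2ak, an H2A gene, was at 172 and 152 CPM in cycling cells and had 0 UMIs in resting SP cells of both libraries, which allows up to 3.40 CPM in the wild type library and 1.93 in mutant, the level of 3 UMIs.

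**Figure D1:**
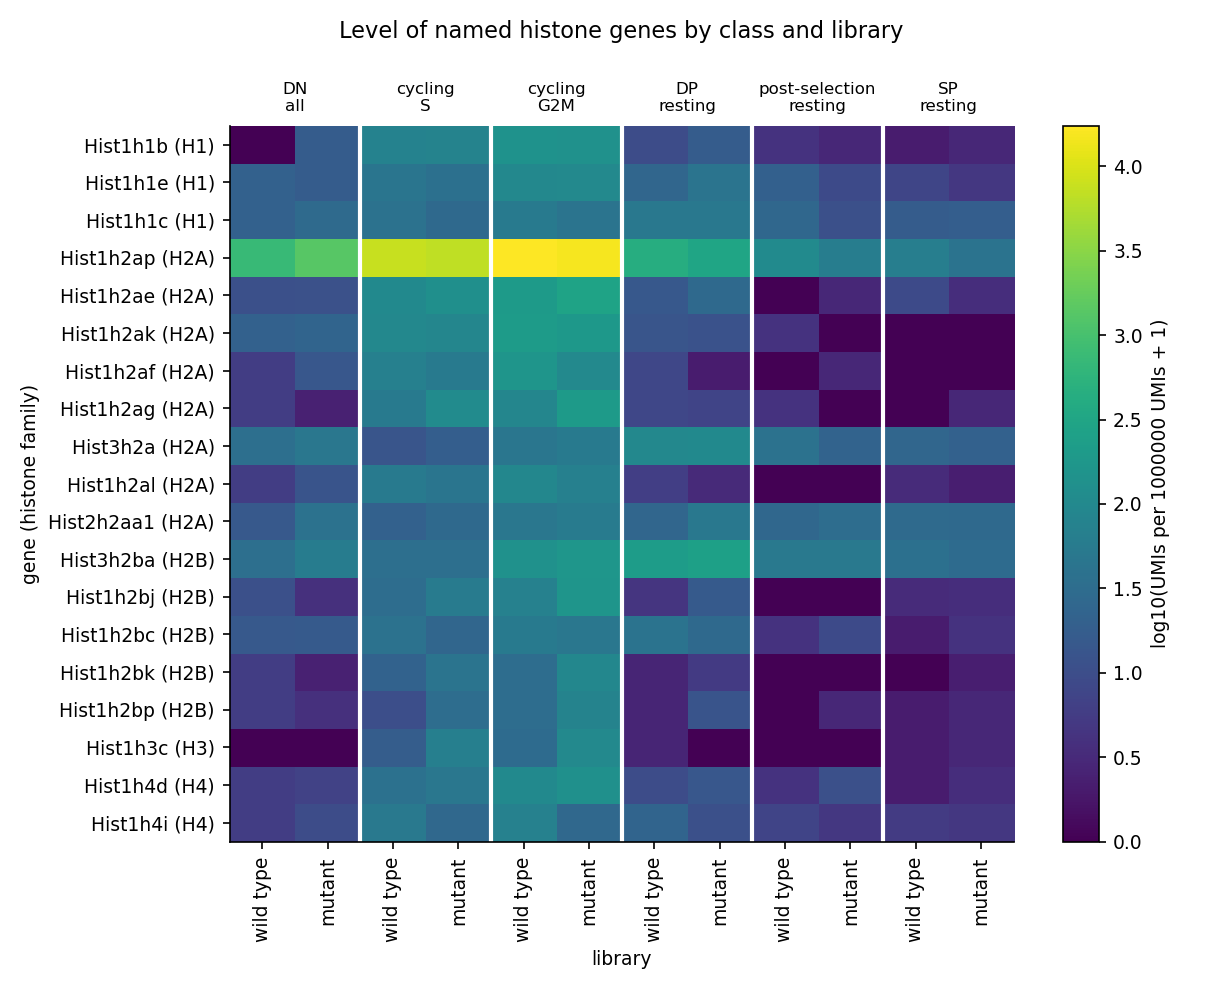
Level of 19 named histone genes (rows, with their family) in DN cells, cycling S and G2M cells and resting DP, post-selection and SP cells of each library (columns) as log10 of UMIs per 1000000 UMIs plus 1, shown by colour. Hist1h2ap is the brightest row in every column drawn, and Hist3h2ba and Hist3h2a are brighter in resting DP cells than in either phase of the cycling class.

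Within the cycling class, histone RNA was higher in cells scored G2M than in cells scored S. In wild type, all members were at 8797 (8642 to 8953) CPM in 190 S cells and at 19773 (19612 to 19935) in 405 G2M cells. In mutant, they were at 8186 (7962 to 8415) CPM in 101 S cells and at 18120 (17904 to 18338) in 203 G2M cells. The wild type and mutant intervals overlapped in neither phase, and the phases differed within each library. The G2M level was 2.25-fold the S level in wild type and 2.21-fold in mutant. The median number of Hist1h2ap UMIs per G2M cell was 114 for wild type and 91 for mutant, and per S cell 12 and 5. Of the 52 members tested in wild type, 29 were at least 2-fold higher in G2M cells (7.3% of all genes tested) and none was 2-fold lower (2.84%). Of the 48 tested in mutant, 25 were higher (9.22%) and none was lower (3.81%). Many passed the minimum through G2M cells: 23 members in wild type and 16 in mutant had 20 UMIs in S cells alone, and 10 of the 23 and 9 of the 16 were 2-fold higher in G2M cells. The S list holds genes that rise before and early in DNA synthesis, such as Mcm5, Pcna and Ccne2, so that a cell scored S here need not be in the middle of DNA synthesis. A cell scored G2M need not have finished DNA synthesis either, because the larger score gave the phase. Clusters 7 and 11 had Rrm2 and Tyms as well as Top2a and Birc5 among their markers. How many cells scored G2M were still copying DNA was not tested.

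The families differed in how they rose between the scores. H2B genes were 2.31-fold higher in G2M than in S cells in wild type and 2.58-fold in mutant. H4 genes were 2.02-fold and 1.73-fold higher, H3 genes 2.24-fold and 1.54-fold, and H1 genes 1.81-fold and 1.88-fold. Hist3h2ba, of H2B, was at 34.9 CPM in S and 140.0 in G2M cells of wild type and at 34.0 and 169 in mutant. Hist3h2a rose from 12.1 to 45.1 CPM in wild type and from 17.8 to 52.8 in mutant. Hist1h2bc was at 39.2 and 54.3 CPM in wild type against 24.3 and 46.7 in mutant. Hist1h1c was at 38.5 and 55.6 CPM in wild type, compared with 27.5 and 42.6 in mutant, a smaller rise whose interval included 0 on the log2 scale in mutant.

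Ordered by the G2M score minus the S score and cut into 5 equal bins, the cycling cells of the libraries differed in Hist1h2ap. In wild type, Hist1h2ap was at 6711, 12132, 16819.8, 16985 and 18219 CPM from the first to the last bin. In mutant it was at 3425, 14374, 16057, 15447 and 13414 CPM. Wild type thus began higher, and mutant was lower in the last bin than in the 3 middle bins. Where the peak lay in wild type depended on the bins: with 8 bins it was at 19165 CPM in bin 6 and at 16840.2 in the last, and in mutant at 17187 CPM in bin 5 and at 13417 in the last. The other 67 members together were at 1101, 1568, 2003, 2207 and 3228 CPM in wild type. They were at 1019, 2278, 2705, 3006 and 3079 CPM in mutant. Their first and last bins overlapped between the libraries and their 3 middle bins were higher in mutant. Each bin held 120 wild type cells and 61 or 62 mutant cells, with median depths from 5280 to 6544 UMIs in wild type and from 3944 to 6714.5 in mutant.

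The 4 members detected in resting cells other than Hist1h2ap (Hist1h1c, Hist2h2aa1, Hist3h2a and Hist3h2ba) were highest in the last bin of both libraries. Their sum was at 108, 133, 178, 231 and 581 CPM in the wild type library and 89.9, 135, 208, 277 and 538 in mutant. The interval of the last bin, which has the highest G2M and the lowest S scores, lay above that of every earlier bin of its library. H2B genes as a family showed the same order, from 196 to 834 CPM in wild type and from 242 to 924 in mutant.

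**Figure D2:**
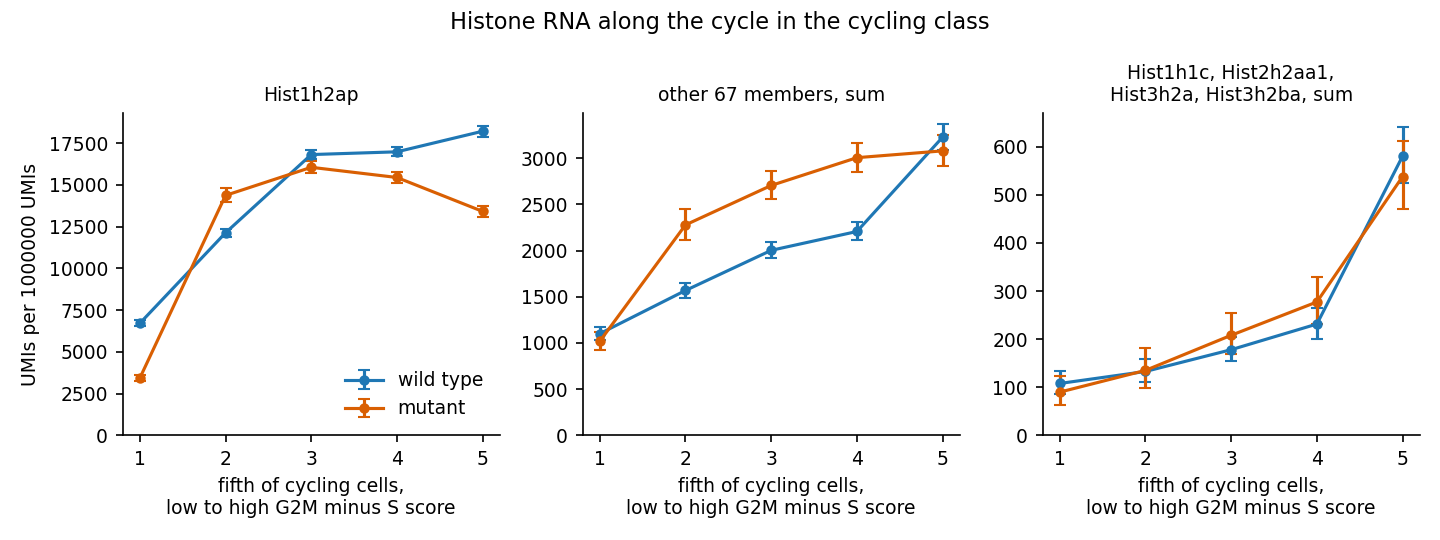
Histone RNA in UMIs per 1000000 UMIs (vertical axis, with exact Poisson 95% intervals) in 5 equal bins of cycling cells ordered by G2M minus S score (horizontal axis), for Hist1h2ap, the other 67 members and 4 members detected in resting cells. Wild type is blue and mutant orange. The Hist1h2ap curves cross, the other members are higher in mutant in the 3 middle bins, and the 4 members are highest in the last bin of both libraries.

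Cluster 2, which both libraries shared and which was led by genes of entry into DNA synthesis, is part of the cycling class that was binned. Its values are thus a description and no separate support. All members were at 7896 (7758 to 8035) CPM there in wild type and at 3745 (3593 to 3902) in mutant, which gave a log2 mutant/wild type ratio of -1.08 (-1.14 to -1.01). Without Hist1h2ap they were at 1076 and 1094 CPM, which gave a log2 mutant/wild type ratio of 0.02 (-0.11 to 0.15). In cluster 8, the other shared cluster, the log2 ratio of Hist1h2ap was -0.38 (-0.43 to -0.33) and that of the other members 0.10 (0.00 to 0.21).

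A few members were detected in resting cells, among them a pair on chromosome 11 that was higher in resting DP than in cycling cells. By a level of at least 20 CPM in wild type resting DP and SP cells, these were Hist1h1c, Hist1h2ap, Hist2h2aa1, Hist3h2a and Hist3h2ba, 5 of the 68. Hist3h2ba, an H2B gene, was at 221 (185 to 263) CPM in wild type resting DP cells and at 260.0 (228 to 295) in mutant, above its level in cycling cells of 106 (96.2 to 116) and 129 (114 to 145). In resting SP cells it was at 36.3 (24.8 to 51.3) and 28.9 (21.1 to 38.7) CPM. The interval of Hist3h2ba in resting DP cells lay above that of the cycling class as a whole and of resting post-selection and SP cells in both libraries. Hist3h2ba alone was not measured by bin, so whether this held for every range of cycling cells was not tested. The 4-member sum that includes Hist3h2ba was at 387 and 459 CPM in resting DP cells, below the level of that sum in the last of the 5 bins. Hist3h2a, an H2A gene that lies downstream on the same strand, was also higher in resting DP than in all cycling cells: 93.3 (70.1 to 122) CPM in wild type against 100.3 (81.0 to 123) in mutant in resting DP cells, and 34.3 and 42.4 in cycling cells. In resting SP cells it was at 23.8 and 19.9 CPM.

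Hist1h1c, a linker histone known in cells that do not divide, was nearly level between cycling and resting DP cells. It was at 50.2 (43.7 to 57.3) CPM in wild type cycling cells and 38.1 (30.2 to 47.4) in mutant, and at 48.4 (32.1 to 69.9) and 49.6 (36.3 to 66.2) in resting DP cells. In resting SP cells it fell to 15.9 (8.69 to 26.7) and 17.3 (11.4 to 25.2) CPM. Hist2h2aa1, an H2A gene, differed less between the classes, at 28.4 (18.4 to 41.9) CPM in wild type resting SP cells and 27.0 (19.4 to 36.5) in mutant, against 38.4 (32.8 to 44.7) and 49.1 (40.0 to 59.5) in cycling cells. All 100-base stretches of its last 300 bases also occur in another gene, so its level is uncertain. Hist1h2bc, an H2B gene, stood below the 20 CPM level over wild type resting DP and SP cells together. It was at 39.7 (25.2 to 59.6) CPM in wild type resting DP cells and 27.0 (17.5 to 39.8) in mutant, from 23 and 25 UMIs, and at 1.13 and 3.21 in resting SP cells, from 1 and 5 UMIs. Its cycling level was 49.9 (43.5 to 57.0) CPM in wild type, compared with 40.0 (31.9 to 49.5) in mutant, so cycling and resting DP cells had overlapping intervals in both libraries.

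**Figure D3:**
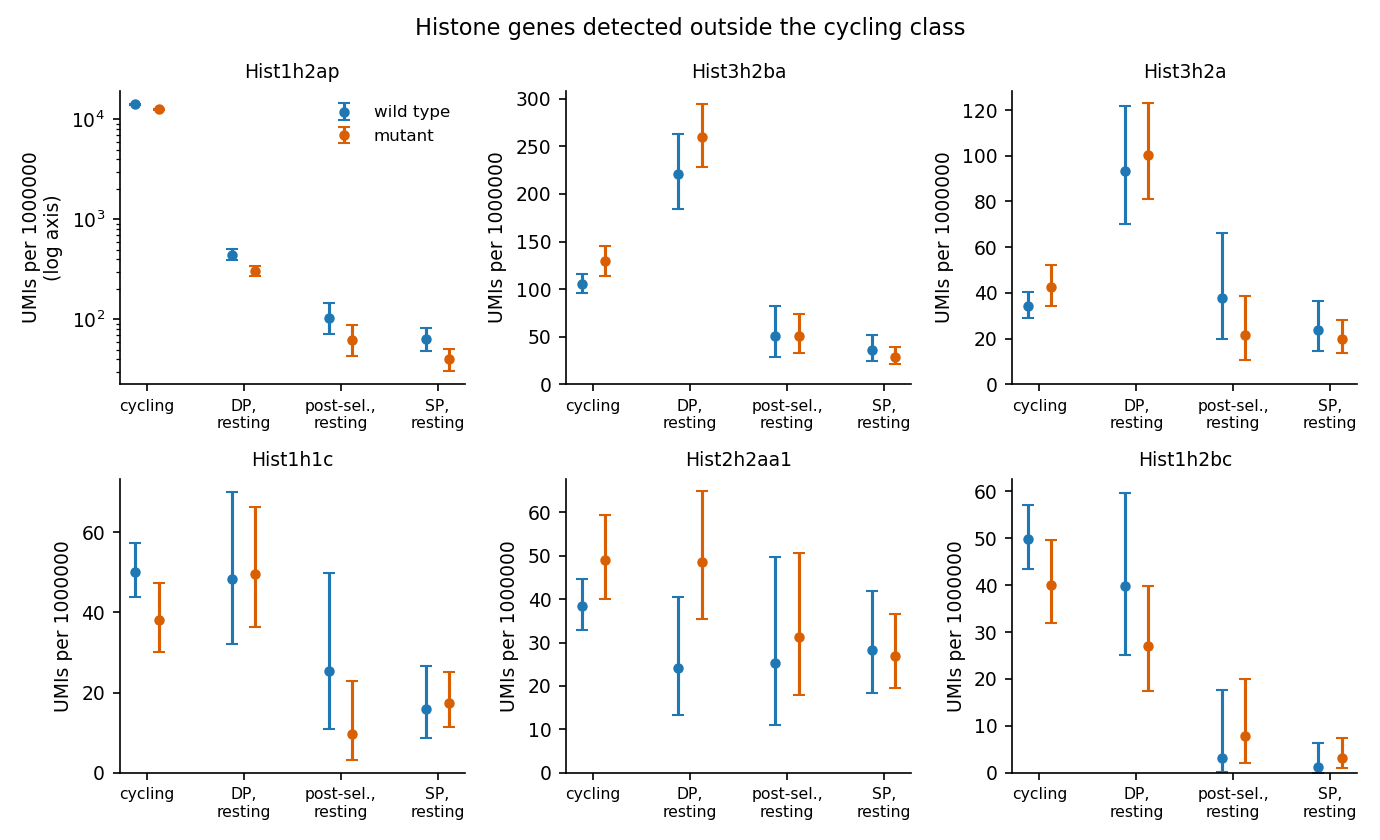
Level of 6 histone genes in UMIs per 1000000 UMIs (points, with exact Poisson 95% intervals; log axis for Hist1h2ap) in the cycling class and in resting DP, post-selection and SP cells of wild type (blue) and mutant (orange). Hist1h2ap is far higher in cycling cells, Hist3h2ba and Hist3h2a are highest in resting DP cells among the groups drawn, and Hist1h2bc is near 0 in post-selection and SP cells.

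Between resting DP and resting SP cells, 6 of 7 members tested in wild type were at least 2-fold higher in DP cells (21.3% of all genes tested) and 9 of 10 in mutant (21.4%), and none was 2-fold lower (7.8% and 7.82%). Passing the minimum through DP cells favours a higher level there without fixing it. In resting SP cells alone, 4 members in wild type and 5 in mutant had 20 UMIs. Of these, 3 of the 4 and 4 of the 5 were 2-fold higher in DP cells. The exception in each library was Hist2h2aa1, at log2 ratios of -0.23 (-1.29 to 0.77) and 0.85 (0.21 to 1.49). Per cell, with every cell thinned to 1500 UMIs, 22.8% of wild type and 27.9% of mutant resting DP cells had a Hist3h2ba UMI, against 4.40% and 5.11% of resting SP cells. Unthinned, the shares were 36.6% and 33.3% in DP cells, at median depths of 2102 and 1808 UMIs, and 9.89% and 8.21% in SP cells, at 2851 and 2920 UMIs. DP cells thus had the larger share at the lower depth. For Hist1h2ap the thinned shares were 43.7% and 30.4% of resting DP cells and 9.52% and 6% of resting SP cells, and unthinned 54.7% and 40.2%, and 16.1% and 10.6%. No resting DP cell held more than 7 Hist1h2ap UMIs in wild type or 6 in mutant, where cycling cells held up to 465 and 340. Thinning left out 60 mutant resting DP cells, 13 mutant resting SP cells and no wild type cell of these classes.

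The members stood in another ratio to each other in resting cells than in cycling cells. Per 100 Hist1h2ap UMIs there were 0.744 Hist3h2ba UMIs in wild type cycling cells and 1.02 in mutant, but 49.8 and 85.2 in resting DP cells and 57.1 and 72.6 in resting SP cells. For Hist1h1c the same values were 0.353 and 0.300 in cycling, 10.9 and 16.3 in resting DP and 25 and 43.5 in resting SP cells. How much of the Hist1h2ap in resting cells was free RNA was not tested.

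Of the 5 members detected in resting cells, 3 have annotated transcripts that run over 100 bases past the stem-loop. The annotation ends 1643 bases past it in Hist3h2a, 169 in Hist3h2ba and 840 in Hist1h1c, but 35 in Hist2h2aa1 and 3 in Hist1h2ap. The Hist1h2bc transcript searched has 2 exons and no stem-loop pattern in the 742 annotated bases past its coding region. Other transcripts of Hist1h2bc were not searched, so the gene need not lack a stem-loop. Over the 20 members with at least 20 UMIs that are annotated at least 100 bases past the stem-loop, the level in resting DP cells was a median of 32.9% of that in cycling cells in wild type and 37.4% in mutant. Over the 20 that end within 100 bases it was 10.7% and 8.63%, and over the 18 without the pattern 16.9% and 17.7%. Many of these 18, such as Hist1h1b and Hist1h2ak, have no annotated bases past the coding region, so they need not lack a stem-loop. A resting level over 50% of the cycling level is common among genes. Against resting DP and SP cells together, only 14.7% of all genes tested in wild type and 15.9% in mutant were at least 2-fold higher in cycling cells. The resting DP level was over 50% of the cycling level for 7 of the 20 long members in wild type and 9 in mutant. The same held for 1 and 3 of the 20 short ones, and for 6 and 2 of the 18 without the pattern. Among those without it was Hist2h2be, at 25.9 CPM in wild type resting DP cells and 22.7 in mutant, from 15 and 21 UMIs, and at 14.3 and 4.76 in cycling cells. Hist4h4, an H4 gene on chromosome 6 with 2445 annotated bases past the stem-loop, was at 22.5 CPM in wild type resting DP cells and 7.55 in mutant, from 13 and 7 UMIs, and at 8.97 and 8.57 in cycling cells. Many of these ratios rest on a few UMIs, and the files do not hold the ends of the reads, so which transcript end was captured was not tested.

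**Figure D4:**
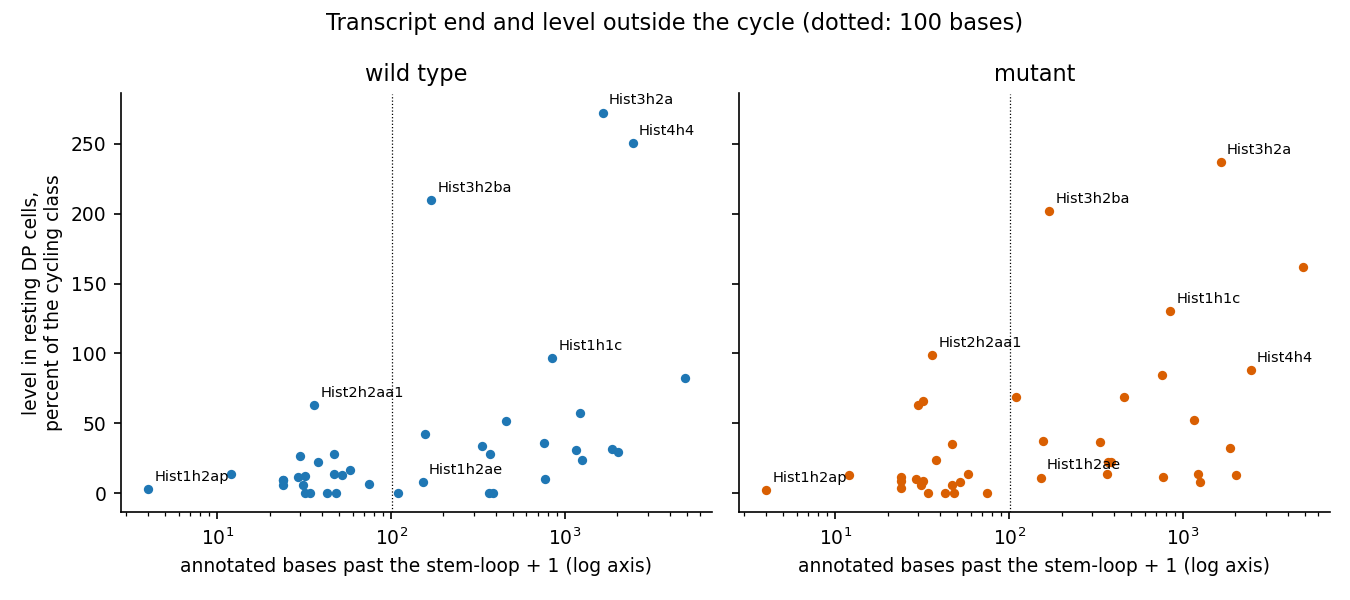
Level in resting DP cells as a percent of the level in the cycling class (vertical axis) against the annotated bases past the stem-loop plus 1 (horizontal log axis) for the 40 members with a stem-loop and at least 20 UMIs, wild type on the left and mutant on the right. Members without the pattern, Hist2h2be among them, are not drawn. The drawn members above 100% lie to the right of the dotted line at 100 bases in both libraries.

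Between the libraries, the sum of all members in cycling cells differed little, and this sum joined members that differed in opposite directions. Its log2 ratio of mutant over wild type was -0.09 (-0.11 to -0.07). Over all cells it was -0.94 (-0.96 to -0.92), with 7 of 58 members at least 2-fold lower (1.77% of all genes tested) and none higher (6.15%), and cycling cells made up 17.7% of the mutant and 44.8% of the wild type library. Hist1h2ap was lower in mutant cycling cells, which gave a log2 mutant/wild type ratio of -0.16 (-0.18 to -0.14), and the other 67 members together were higher, at 0.32 (0.27 to 0.37), from 1974 CPM in the wild type library and 2464 in mutant. The median log2 ratio of all 9205 genes tested in the class was 0.18, and 0.01 with ribosomal protein and mitochondrial genes left out of the totals. Relative to that median, which moves with the scaling as every gene does, Hist1h2ap was at -0.34 and the other members at 0.14. Ribosomal protein and mitochondrial genes took 31.6% of the UMIs of wild type cycling cells and 23.5% of those of mutant, and the G2M list 18762 and 21711 CPM. Their part in the differences was not tested.

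H3 and H2B genes stood highest in mutant relative to wild type. In cycling cells, H3 genes together were at 124 (114 to 135) CPM in wild type against 241 (221 to 263) in mutant, which gave a log2 mutant/wild type ratio of 0.96 (0.79 to 1.14). H2B genes were at 391 (373 to 410.2) CPM in wild type, compared with 622 (589 to 657) in mutant, which gave a log2 mutant/wild type ratio of 0.67 (0.57 to 0.78). The log2 ratio was 0.18 (0.10 to 0.25) for H2A without Hist1h2ap, 0.17 (0.03 to 0.31) for H4 and -0.05 (-0.20 to 0.09) for H1. The intervals of H3 and H2B lay above those of the other families, and that of H1 included 0. Hist1h3c alone held 111 of the 538 H3 UMIs in wild type cycling cells and 185 of the 507 in mutant. The H3 sum without Hist1h3c was not taken. The median log2 ratio over the members tested was 0.79 for H3, 0.51 for H2B and 0.43 for H4. It was 0.23 for H2A without Hist1h2ap and -0.02 for H1. Of the members tested, 9 of 10 H3 genes, 12 of 14 H2B genes, 9 of 14 H2A genes other than Hist1h2ap, 9 of 12 H4 genes and 2 of 5 H1 genes had a log2 ratio above 0. The median log2 ratio of all 9205 genes tested was 0.18, so most genes were above 0 as well. The sums of H2A without Hist1h2ap and of H4, at 0.18 and 0.17, lay near that median. Each family's sum holds members whose reads near-identical copies share.

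In cells scored S, 9 of 37 members tested were at least 2-fold higher in mutant (5.8% of all genes tested) and 1 was lower (3.12%), and in cells scored G2M 9 of 56 were higher (3.83%) and 2 lower (2.5%). Of the 56 members with at least 20 UMIs in the cycling class, 13 were at least 2-fold higher in mutant, where 3.95% of all genes tested were, and 2 were at least 2-fold lower, where 2.59% were. The intervals of 12 of the 13 and of both others excluded 0, and the median log2 ratio was 0.41 over the 56 members and 0.18 over all genes. The 13 became 6 with ribosomal protein and mitochondrial genes left out of the totals, 7 with cells thinned to 1500 UMIs and 8 with a mean over cells. The members higher in mutant were Hist1h2ag of H2A, Hist1h2bh, Hist1h2bj, Hist1h2bk, Hist1h2bl, Hist1h2bm and Hist1h2bp of H2B, Hist1h3c, Hist1h3f and Hist2h3b of H3, and Hist1h4a, Hist1h4b and Hist1h4f of H4. The members lower in mutant were Hist1h4i of H4 and Hist2h2be of H2B. Hist1h3c was at 25.5 (21 to 30.8) CPM in the wild type library and 88.1 (75.9 to 102) in mutant, which gave a log2 mutant/wild type ratio of 1.79 (1.44 to 2.14). Hist1h2bk was at 28.1 (23.3 to 33.5) CPM in wild type against 75.2 (64.0 to 87.9) in mutant, which gave a log2 mutant/wild type ratio of 1.42 (1.07 to 1.78). Hist1h2bp was at 24.6 (20.2 to 29.7) CPM in wild type, compared with 63.3 (53.0 to 75.1) in mutant, which gave a log2 mutant/wild type ratio of 1.36 (0.99 to 1.74). These 3 were the highest in mutant among the 18 members with at least 50 CPM in 1 library. Hist1h4i was at 66.0 (58.6 to 74.1) CPM in the wild type library and 26.2 (19.7 to 34.1) in mutant, which gave a log2 mutant/wild type ratio of -1.33 (-1.78 to -0.91). Hist1h2af, an H2A gene, was at 131 (120.4 to 142) CPM in wild type against 85.3 (73.2 to 98.7) in mutant, which gave a log2 mutant/wild type ratio of -0.62 (-0.87 to -0.37). Hist1h1c, which gave a log2 mutant/wild type ratio of -0.40 (-0.78 to -0.02), was the next lowest of the 18.

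Clusters 2 and 8, which both libraries shared, are part of the cycling class in which these 6 members were picked as the highest and lowest, so that their ratios there are a description and no separate support. For Hist1h3c the log2 ratio was 1.81 (1.08 to 2.56) in cluster 2 and 1.79 (1.03 to 2.57) in cluster 8. For Hist1h4i it was -1.71 (-2.90 to -0.71) and -1.57 (-2.58 to -0.69), and for Hist1h2af -1.0 (-1.79 to -0.28) and -0.98 (-1.59 to -0.40). For Hist1h2bk it was 1.10 (0.33 to 1.87) and 1.30 (0.50 to 2.11), and for Hist1h2bp 1.16 (0.17 to 2.14) and 0.60 (-0.21 to 1.39). For Hist1h1c it was -0.55 (-1.44 to 0.27) and -0.12 (-0.91 to 0.62). The intervals of Hist1h1c in both clusters and of Hist1h2bp in cluster 8 included 0. Of the other members named by their UMIs or their level in resting cells, Hist1h2ag and Hist1h2bj were more than 2-fold higher in mutant and are described with their neighbours. For the rest, the log2 ratio in the class was 0.50 (0.34 to 0.67) for Hist1h2ae, 0.40 (0.15 to 0.64) for Hist1h4d, 0.29 (0.07 to 0.51) for Hist3h2ba, 0.31 (-0.09 to 0.69) for Hist3h2a, 0.35 (-0.02 to 0.72) for Hist2h2aa1, 0.03 (-0.24 to 0.30) for Hist1h1e, -0.04 (-0.26 to 0.18) for Hist1h1b, -0.18 (-0.37 to 0.02) for Hist1h2ak, -0.32 (-0.70 to 0.05) for Hist1h2bc and -0.33 (-0.63 to -0.04) for Hist1h2al, a symbol that the annotation used here gives to a processed pseudogene.

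**Figure D5:**
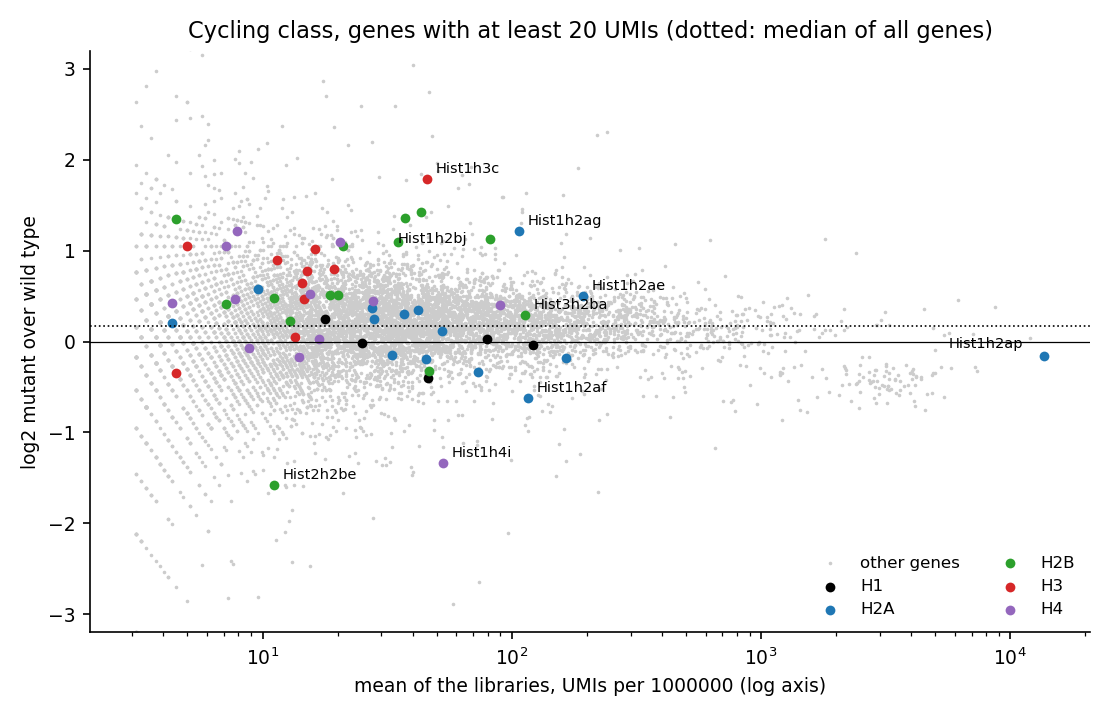
Log2 ratio of mutant over wild type (vertical axis) against the mean level of the libraries in UMIs per 1000000 UMIs (horizontal log axis) in the cycling class, for genes with at least 20 UMIs, with 56 histone genes coloured by family and 32 other genes beyond the axis limits. H3 and H2B genes lie mostly above the median of all genes (dotted), Hist1h4i and Hist2h2be lie far below it, and Hist1h2ap, the most abundant, lies below 0.

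Neighbouring members did not always move together. Of 13 pairs of members that start within 1000 bases of each other and point apart, 9 had both members tested in the cycling class. In 5 of the 9 pairs both members had a log2 ratio above 0, in 1 pair both were below 0 and in 3 pairs the signs differed, and both members were at least 2-fold higher in mutant in 2 pairs. Of all 56 members tested in the class, 41 had a log2 ratio above 0 and 13 were at least 2-fold higher. Pairs with both members above 0 are thus no result about neighbours. Hist1h2ag and Hist1h2bj, whose starts are 270 bases apart on chromosome 13, were higher in mutant together: Hist1h2ag was at 75.0 CPM in wild type, compared with 174 in mutant, which gave a log2 mutant/wild type ratio of 1.22 (1.00 to 1.44), and Hist1h2bj at 58.7 and 129 CPM, which gave 1.13 (0.88 to 1.38). These pairs were singled out after their values were seen. Hist1h4i, the next gene on the side of Hist1h2ag, was the member furthest lower in mutant among those with at least 50 CPM. Hist2h2ac and Hist2h2be on chromosome 3, 239 bases apart, had log2 ratios of 0.12 (-0.22 to 0.45) and -1.58 (-2.71 to -0.61). Hist1h2ac and Hist1h2bc, 251 bases apart, had ratios of -0.19 (-0.57 to 0.18) and -0.32 (-0.70 to 0.05). By position, the log2 ratio of the summed members other than Hist1h2ap was 0.47 (0.39 to 0.55) for the 22 genes from Hist1h2bl to Hist1h2bj on chromosome 13, 0.28 (0.20 to 0.35) for the 31 from Hist1h4h to Hist1h2aa, 0.14 (-0.06 to 0.33) for the 10 on chromosome 3 and 0.29 (0.10 to 0.48) for the 2 on chromosome 11.

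The promoters below are those of the most abundant member, of the chromosome 11 pair detected in resting DP cells, and of Hist1h2ag, whose window overlaps that of Hist1h2bj at chr13:22042948-22043247 (+ strand). Each is the RefSeq sequence from 250 bases before to 50 bases after the start in GRCm38.p6, read along its gene: Hist1h2ap at chr13:21833426-21833725 (- strand), Hist3h2ba at chr11:58948661-58948960 (+ strand), Hist3h2a at chr11:58954435-58954734 (+ strand) and Hist1h2ag at chr13:22042900-22043199 (- strand). Capitals mark the octamer ATTTGCAT, the box CCAAT and the box TATAAA, on either strand.
Hist1h2ap: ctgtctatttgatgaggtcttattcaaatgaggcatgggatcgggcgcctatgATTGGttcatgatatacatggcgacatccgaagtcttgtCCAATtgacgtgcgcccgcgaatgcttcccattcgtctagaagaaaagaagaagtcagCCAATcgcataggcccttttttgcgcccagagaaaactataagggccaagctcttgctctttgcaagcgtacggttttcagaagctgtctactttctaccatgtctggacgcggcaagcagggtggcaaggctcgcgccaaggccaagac
Hist3h2ba: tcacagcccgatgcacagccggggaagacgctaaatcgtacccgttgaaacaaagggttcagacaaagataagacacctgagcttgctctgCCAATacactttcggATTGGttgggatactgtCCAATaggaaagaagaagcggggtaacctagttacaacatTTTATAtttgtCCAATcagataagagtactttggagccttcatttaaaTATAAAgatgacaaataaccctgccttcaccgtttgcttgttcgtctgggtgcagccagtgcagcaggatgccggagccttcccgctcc
Hist3h2a: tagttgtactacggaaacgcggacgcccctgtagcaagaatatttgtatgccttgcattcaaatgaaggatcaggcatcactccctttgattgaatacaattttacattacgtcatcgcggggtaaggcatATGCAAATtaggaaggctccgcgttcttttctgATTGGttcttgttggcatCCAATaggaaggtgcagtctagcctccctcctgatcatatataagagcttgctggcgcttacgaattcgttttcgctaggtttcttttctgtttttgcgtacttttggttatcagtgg
Hist1h2ag: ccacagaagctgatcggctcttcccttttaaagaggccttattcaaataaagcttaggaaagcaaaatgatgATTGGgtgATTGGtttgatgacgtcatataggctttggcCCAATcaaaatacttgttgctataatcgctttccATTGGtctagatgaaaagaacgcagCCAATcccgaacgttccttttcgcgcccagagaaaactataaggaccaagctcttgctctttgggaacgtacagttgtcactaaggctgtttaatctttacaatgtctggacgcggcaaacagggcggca

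RefSeq promoters matched 62 of the 68 members, and those of divergent pairs share bases. The octamer stood in 7 of 18 H2A and 6 of 16 H2B promoters (38.9% and 37.5%), in none of 6 H1, 10 H3 and 12 H4 promoters, and in 1.75% of all 27025 promoters. CCAAT stood in every H1, H2A, H2B and H3 promoter and in 3 of 12 H4 promoters (25%), and in 37.9% of all. TATAAA stood in 14.2% of all promoters and in 40% to 66.7% of those of each family. Of the 4 promoters printed, that of Hist3h2a holds the octamer, and that of Hist3h2ba holds 4 CCAAT boxes on both strands and 2 matches to TATAAA. These matches describe the letters in the window and say nothing of a factor.

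Many genes of the pathways that make and carry histones were also higher in cycling cells. Over all genes tested, 14.7% in wild type and 15.9% in mutant were 2-fold higher in cycling cells, and between the libraries 3.95% were 2-fold higher and 2.59% lower in mutant cycling cells, so that a count of 0 in a short list is near the share of all genes. Of 19 measured genes of histone RNA transcription and 3′ processing, 9 were at least 2-fold higher in cycling than in resting DP and SP cells in wild type and 9 in mutant, and none was 2-fold different between the libraries in cycling cells. Slbp, the stem-loop binding protein, was at 612 CPM in wild type S cells and 811 in mutant, and at 432 and 464 in G2M cells, so that it was higher in S cells where the histones were lower. Slbp was not in the S or the G2M list. Its log2 ratio in the class was 0.21 (0.11 to 0.32), and those of Snrpb and Snrpd3, Sm proteins of small nuclear ribonucleoproteins, were 0.22 (0.12 to 0.31) and 0.22 (0.07 to 0.37). Of 21 histone chaperones, 13 were 2-fold higher in cycling cells in wild type and 14 in mutant, and none differed 2-fold between the libraries. Rbbp4, a histone-binding subunit of chromatin complexes, had a log2 ratio of 0.47 (0.35 to 0.59), Npm1, a nucleolar chaperone, -0.39 (-0.46 to -0.33), and Nap1l1, a chaperone of H2A and H2B, -0.12 (-0.22 to -0.01).

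Of 45 DNA replication genes, 22 were also among the genes that scored the phases or named the cycling class, so that their level in cycling cells is no result. None of the 45 differed 2-fold between the libraries there, and their median log2 ratio was 0.06. Pcna, the sliding clamp of DNA polymerase, had a log2 ratio of -0.04 (-0.14 to 0.06), Rrm2, a subunit of ribonucleotide reductase, 0.14 (0.05 to 0.22), and Dut, which removes dUTP, 0.28 (0.21 to 0.36). Of 10 measured replacement histone variants, which are also made outside DNA synthesis, 5 were 2-fold higher in cycling cells in each library, and 1, the linker histone H1fx, was 2-fold higher in mutant cycling cells. The H3.3 genes H3f3a and H3f3b were at 2333 and 2797 CPM in wild type resting DP cells and at 2769 and 2768 in mutant, near their cycling levels of 2771 and 2799 in wild type and 3154 and 3171 in mutant. H2afz, the H2A.Z gene and a marker that named the cycling class, was at 4723 and 5223 CPM in cycling cells and 479 and 603 in resting DP cells.

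In resting cells few members had enough UMIs to compare the libraries. Hist1h2ap was lower in mutant resting DP cells, which gave a log2 mutant/wild type ratio of -0.54 (-0.79 to -0.29), and in resting SP cells, with -0.67 (-1.22 to -0.13). The 4 other members detected in resting cells had a summed log2 ratio of 0.24 (0.01 to 0.48) in resting DP cells and -0.16 (-0.55 to 0.23) in resting SP cells. Of 13 members tested in resting DP cells, 2 were at least 2-fold higher in mutant (5.44% of all genes tested), Hist1h1d and Hist2h2aa1, and 2 were lower (2.16%), Hist1h4i and Hist4h4. Over resting DP and SP cells together, 1 of 18, Hist1h2bj, was higher (2.81%) and none lower (1.68%). Hist2h2aa1 was at 24.2 (13.2 to 40.6) CPM in the wild type library and 48.6 (35.4 to 65.0) in mutant, which gave a log2 mutant/wild type ratio of 1.01 (0.11 to 1.99). In resting SP cells none of 5 members tested was 2-fold different (2.87% of all genes higher, 1.64% lower). In the DN class all members were at 1022 (889 to 1169.8) CPM in wild type against 1818 (1718 to 1922) in mutant, where 8 of 45 and 23 of 184 cells were scored S or G2M, and in resting DN cells the log2 ratio was 0.12 (-0.25 to 0.51).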

How the data were processed

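Thymocytes of 1 wild type and 1 mutant library were captured with 10x 3′ v2 chemistry, and Cell Ranger with mm10 produced the tables, per the submitters' processing notes. The deposited values were UMI counts per cell and gene, taken as deposited, and the annotation behind them was not given in the sources used here. Kept cells had 400 or more genes detected and no more than 10% mitochondrial UMIs. Doublet scoring with scanpy 1.11.5 (Python 3.11.15) called 5 cells (0.163%), a rate at which most doublets remain. Cells of both libraries were clustered together without member genes (2000 variable genes, 30 components, Leiden resolution 1) and named from fixed markers. Cluster 14 stayed unnamed. Phases were scored from S and G2M gene lists. For each class of a library the counts were summed and scaled to its total, with exact Poisson intervals for levels, exact conditional binomial intervals for ratios and exact binomial (Clopper-Pearson) intervals for shares. Genes with at least 20 UMIs over the cells compared were tested against a 2-fold limit. The interval code was tested on simulated data. Full values were given for the 12 members with most UMIs, Hist1h2bc, Hist1h1c, the members detected in resting cells, and the 3 highest and 3 lowest log2 ratios of mutant over wild type among members at 50 CPM or more in 1 library, with the 3 most abundant genes of each pathway list. The members, lists and rules were chosen with earlier results of these data known. Alternatives changed the cell filter, doublets, depth, scaling, clustering, phase calls, bins and limits, and 2 more were chosen after seeing the data: leaving out cluster 15, and taking DP cells alone as resting. Stem-loops were searched in GENCODE M21 transcripts and promoters in RefSeq sequences of GRCm38.p6.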

Additional observations from a re-analysis of the deposited data

How the results depend on the processing

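All values here are log2 ratios unless named as counts. Over 12 results and 20 alternatives, 108 values stayed within the main value's counting interval (for counts of members, within 1.5 times), 48 moved by more, and 1 changed sign. That one was the ratio of mutant over wild type for all members in the cycling class, at -0.09, which became 0.32 without the most abundant member; it was -0.13 at Leiden resolution 1.5, -0.22 with cells thinned to 1500 UMIs, -0.18 with each library clustered alone, -0.20 as a mean over cells and -0.25 with ribosomal protein and mitochondrial genes left out of the totals. Without Hist1h2ap the same ratio, 0.32, became 0.20, 0.23, 0.21 and 0.16 under the last 4 of these. The 13 members at least 2-fold higher in mutant became 7 with thinned cells, 8 as a mean over cells and 6 with the reduced totals. The level of the cycling class over the whole DP class was 3.80 in wild type and 3.69 in mutant; without the most abundant member it was 1.46 and 1.51, and with thinned cells 3.96 in wild type. For G2M over S, 1.17 in wild type became 1.34 with thinned cells, 1.21 with libraries clustered alone, 1.24 without the highest doublet scores, 1.35 as a mean over cells, 0.97 with phases scored on thinned cells, 1.00 with the reduced totals and 1.06 without the most abundant member. In mutant, 1.15 became 1.31 with thinned cells, 1.19 with libraries clustered alone, 1.34 as a mean over cells, 0.84 with phases scored on thinned cells, 1.06 with the same lower UMI limit, 1.03 with the reduced totals and 1.04 without the most abundant member. The last over the first bin was 1.46 in wild type; it became 1.28 with 3 bins, 1.55 with 8 bins, 1.65 with thinned cells, 1.51 with libraries clustered alone, 1.60 without the highest doublet scores, 1.68 as a mean over cells, 1.19 with phases scored on thinned cells, 1.5 with the same lower UMI limit, 1.14 with the reduced totals and 1.55 without the most abundant member. In mutant, 1.89 became 1.06 with 3 bins, 1.44 with phases scored on thinned cells, 1.69 with the reduced totals and 1.60 without the most abundant member. The number of members detected in resting cells, 5, became 11 at 10 CPM, 3 at 50 CPM, 8 with the reduced totals and 10 with DP cells alone as resting. The ratio of mutant over wild type for the 4 of them other than Hist1h2ap, 0.08, became 0.31 with thinned cells. The cause of these shifts was not tested. Clustering without the cell cycle genes gave no cycling class and so no value for results on that class. No paired analysis was possible because each genotype had 1 library.

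With 1 library per genotype, genotype, animal, capture and sequencing cannot be told apart. The libraries filled the classes from different clusters, so class ratios also compare different mixtures of cells. Members at a few UMIs in resting cells have wide intervals, and reads of near-identical copies could not be assigned with certainty.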
